A study of Homo sapiens with 8 samples.

Results

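The tRNA features of alanine, isoleucine and lysine in H1299 lung carcinoma cells held 5 gene copies almost unread in the mutant p53 R273H line. In the empty vector line 4 of them gave many reads and chr6.trna38-IleAAT gave 17 to 60 a library. Other copies of the same anticodons were read in both lines. The Ala TGC and Ile AAT sums were only 8 to 16 reads a library in the mutant line. The features described here are those whose name ends in an alanine (Ala), isoleucine (Ile) or lysine (Lys) anticodon. There were 57 of them among 1226 counted features, of which 274 were tRNA features, 945 were miRNAs, 3 were rRNAs and 4 were adapters. Ala had 26 features (AGC 15, CGC 5 and TGC 6), Ile had 11 (AAT 5, GAT 1 and TAT 5) and Lys had 20 (CTT 9 and TTT 11). They were chosen because of their values in the untreated lines, so those values are given as a description with no test.

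All 8 libraries came from H1299, a lung cancer cell line taken from a lymph node, in which no p53 protein is made. The EV line carries an empty vector and came from another laboratory, and the R273H line stably expresses the p53 R273H mutant from a pCMV vector after transfection and growth of G418-resistant colonies, so the mutant and the origin of the line cannot be told apart. Each line was left untreated or received etoposide, a topoisomerase II inhibitor that breaks DNA, for 24 hours, and each of the 4 groups had 2 libraries. The labels give the dose as 10 µM in one protocol and 10 mM in another. The study asked which small RNAs depend on mutant p53, with and without DNA damage. Only small RNAs were counted, so the p53 transgene and the protein-coding markers of the cell type could not be checked here.

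A tRNA carries one amino acid to the ribosome and reads codons through its anticodon, and most anticodons are encoded by several gene copies whose mature sequences are identical or nearly so. Mature tRNAs are cut in cells into fragments, more so under stress, and a small RNA library captures fragments of this kind, here as reads of 17 to 35 bases. The count of a feature is therefore a count of such reads and not of intact tRNA. Reads that match several copies could be split or assigned to one copy in the counting, so every value of a single copy is uncertain in that respect and is given beside the sum over its anticodon. In bulk RNA, fewer cells with a fragment and less of it per cell cannot be told apart.

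The libraries held 234545 to 579367 counted reads. Reads of all tRNA features made up 3.75% to 8.77% of the reads in the 4 EV libraries and 1.72% to 4.53% in the 4 R273H libraries. A differing tRNA share moves the normalized value of every tRNA feature between the lines, and its part in the results was not tested beyond the values scaled to tRNA reads given below. Within each group the 2 libraries differed by more than sampling noise over all features (chi-square per degree of freedom 27.8 to 56.8), and none was a copy of the other. The study calls its replicates biological, but the labels do not say whether they were separate cultures, so the p-values below measure only the spread between these libraries. Intervals and floors cover counting error only, and a count of 0 allows up to 0.518 to 1.28 reads per 100000, depending on the library.

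Few features carried most of the reads. Over the 8 libraries the 57 features held 13887 of 163761 tRNA reads, and the 5 highest held 78.3% of them and the 10 highest 90.5%. In 22 features no library had more than 3 reads. The other 35 had more than 3 reads in at least 1 library (Ala 15, Ile 7 and Lys 13), and 22 features had a read in all 8 libraries.

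The share of tRNA reads that fell on Ala, Ile and Lys was higher in EV than in R273H. In untreated EV it was 11.8% (95% Wilson interval 11.5 to 12.1) and 15.5% (14.8 to 16.3), and in untreated R273H 7.64% (7.07 to 8.24) and 4.40% (4.03 to 4.79). With etoposide it was 11.2% (10.8 to 11.7) and 7.81% (7.54 to 8.10) in EV and 3.32% (3.09 to 3.56) and 4.78% (4.47 to 5.11) in R273H. The lowest EV library was above the highest R273H library by a narrow margin when all 8 are set side by side, and the pairs within each treatment did not overlap. The mean share was lower in R273H by 7.62 percentage points untreated and by 5.48 with etoposide. This measure is a share within tRNA reads, so it does not depend on how libraries were scaled to each other.

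The 5 copies, picked out after their values were seen, held most of the EV reads of these amino acids. They are chr6.trna113-AlaTGC, chr14.trna9-AlaAGC, chr11.trna11-LysTTT, chr6.trna163-IleAAT and chr6.trna38-IleAAT. Their summed reads were 3230 and 1118 in untreated EV, 1523 and 2003 in EV with etoposide, 14 and 10 in untreated R273H, and 17 and 16 in R273H with etoposide. As a share of tRNA reads they made up 8.06%, 11.5%, 7.55% and 5.73% in the 4 EV libraries and 0.176%, 0.0893%, 0.0738% and 0.0964% in the 4 R273H libraries. The other 52 features made up 3.71% and 4.07% of tRNA reads in untreated EV and 7.46% and 4.31% in untreated R273H. The R273H shares were higher, but the EV shares are lowered by the reads of the 5 copies in the total. With the 5 copies left out of the tRNA reads, the other 52 made up 4.03% and 4.59% in untreated EV. In untreated R273H they then made up 7.47% and 4.31%, so the lines overlap. With etoposide they made up 3.70% and 2.09% of all tRNA reads in EV and 3.24% and 4.68% in R273H, which overlap.

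**Figure D1:**
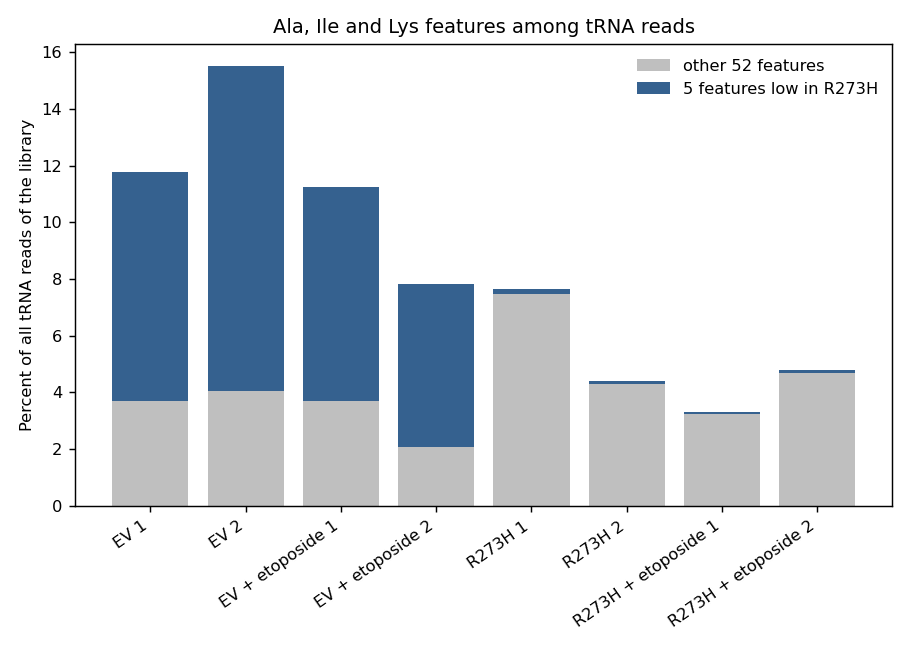
The share of all tRNA reads (percent, vertical axis) that fell on Ala, Ile and Lys features in each of the 8 libraries, split into the 5 copies low in R273H (dark) and the other 52 features (grey). The dark part is 5.73% to 11.5% in the EV libraries and at most 0.176% in the R273H libraries. The grey parts are higher in R273H than in EV without etoposide and overlap with it. With the 5 copies left out of the tRNA reads, the untreated values of the other 52 overlap as well.

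The alanine anticodons held the copies with the largest difference. Ala TGC, which reads GCA codons, came from 1 copy in EV. The level of chr6.trna113-AlaTGC was 263 and 209 reads per 100000 counted reads in untreated EV, 287 and 230 in EV with etoposide, 0.869 and 0.239 in untreated R273H, and 0.188 and 0.818 in R273H with etoposide, which are 4, 1, 1 and 3 reads in the R273H libraries. No R273H library came near the EV range. It made up 97.4% to 99.3% of the Ala TGC reads in the EV libraries.

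With that copy gone from the R273H reads, the Ala TGC sum was 1544, 547, 690 and 933 reads in EV, whereas R273H had 13, 10, 8 and 12. In untreated libraries the summed reads of chr6.trna113-AlaTGC were 419-fold lower in R273H after scaling (exact 95% counting interval 179 to 1291), and with etoposide 674-fold lower (263 to 2475). What remained in R273H was mostly chr12.trna8-AlaTGC, read 6, 7, 3 and 5 times there against 3, 0, 3 and 1 times in EV, and chr6.trna107-AlaTGC. These are counts too low to rank.

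Ala AGC, whose anticodon begins with inosine in the mature tRNA, had a different leading copy in each line. The level of chr14.trna9-AlaAGC was 111 and 103 reads per 100000 in untreated EV, 113 and 105 in treated EV, 0 and 0.478 in untreated R273H and 0.188 and 0 in treated R273H, so all R273H libraries together held 3 reads. It is the single Ala AGC feature on its chromosome and matches TRA-AGC15-1 of RefSeq (GRCh38.p14, used for the name only). After scaling, the ratio of its summed reads in EV to those in R273H was 462 (counting interval 128 to 3822) in untreated cells.

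A second copy of this anticodon was higher in R273H. The level of chr6.trna108-AlaAGC was 13.1 and 9.61 reads per 100000 in untreated EV, 20.5 and 6.52 in treated EV, 44.3 and 20.8 in untreated R273H and 26.0 and 51.0 in treated R273H. The R273H libraries lie above the EV libraries of the same treatment, though the highest EV and lowest R273H values, 20.5 and 20.8, are close. Its share of Ala AGC reads was 5.12% to 12.5% in EV and 66.4% to 81.0% in R273H, where chr14.trna9-AlaAGC had at most 1.53% against 69.2% to 82.7% in EV. The Ala AGC sum, 145 and 133 reads per 100000 in untreated EV and 54.8 and 31.3 in untreated R273H, differed less between the lines than its leading copy. As a share of tRNA reads the sum was 2.09% and 3.54% in untreated EV and 3.18% and 1.17% in untreated R273H, which overlap, and the log2 ratio of the group values was -0.38 in place of -1.59. The next copy, chr6.trna105-AlaAGC, had 9.32, 7.69, 10.7 and 1.76 reads per 100000 in EV and 5.65, 4.54, 2.64 and 7.09 in R273H, groups that overlap with etoposide. Ala CGC was read at 9 to 24 reads in the EV libraries and 3 to 8 in R273H, led by chr6.trna119-AlaCGC.

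Ile AAT, which also begins with inosine when mature, gave most of the isoleucine reads in EV, with 343 of 372, 114 of 128, 190 of 199 and 154 of 170. In R273H it gave 14 of 31, 12 of 28, 14 of 27 and 16 of 25. The level of chr6.trna163-IleAAT was 40.6 and 31.1 reads per 100000 in untreated EV, 62.2 and 30.6 in treated EV, 0.435 and 0.955 in untreated R273H and 1.51 and 1.91 in treated R273H. The reads of chr6.trna38-IleAAT numbered 60, 19, 20 and 17 in EV, and it had none in any of the 4 libraries of R273H. Another copy, chr6.trna57-IleAAT, was read in both lines, at 7.08, 5.38, 9.38 and 3.51 reads per 100000 in EV and 2.61, 1.91, 1.13 and 2.46 in R273H. The ratio of reads of chr6.trna163-IleAAT to chr6.trna57-IleAAT, which does not depend on scaling, was 5.73 and 5.79 in untreated EV and 6.64 and 8.71 in treated EV, against 0.167, 0.5, 1.33 and 0.778 in R273H, where the 2 copies had 2 to 12 reads a library. The Ile AAT sum was 114 to 343 reads in EV and 12 to 16 in R273H. In untreated cells the summed reads of chr6.trna163-IleAAT were 53.4-fold lower in R273H (counting interval 24.3 to 147), and those of chr6.trna38-IleAAT at least 13.3-fold lower, with 3 reads per library as the floor.

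The other isoleucine tRNAs gave few reads in either line. The single Ile GAT feature, chrX_random.trna1-IleGAT, gave counts of 16, 11, 6 and 14 in EV against 8, 7, 5 and 4 in R273H. Ile TAT, which reads the rare AUA codon, summed to 2 to 13 reads in EV and 5 to 9 in R273H over its 5 features. Per 100000 counted reads Ile GAT was lower in each R273H library (0.942 to 1.74) than in any EV library (2.56 to 4.23), whereas the Ile TAT sums overlapped. As a share of tRNA reads the untreated direction of Ile GAT turned, with 0.0399% and 0.113% in EV and 0.101% and 0.0625% in R273H, values that overlap.

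Lysine showed both patterns. Lys TTT, which reads AAA codons, came from 2 copies of nearly equal level in EV. The level of chr11.trna11-LysTTT was 133 and 79.2 reads per 100000 in untreated EV, 179 and 132 in treated EV, 1.74 and 0.717 in untreated R273H and 1.32 and 1.64 in treated R273H. The level of chr11.trna5-LysTTT was 146 and 76.9, 171 and 115, 43.0 and 44.4, and 56.7 and 75.8 in the same groups. The first had no R273H value near its EV range. The second was lower in R273H, with its nearest values 76.9 in EV and 75.8 in R273H. Its untreated log2 fold change of -1.23 depended on the processing and ranged from -1.67 to -0.03 over 14 alternatives.

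The ratio of 2 features within a library does not depend on scaling, and these 2 copies share an anticodon. The ratio of chr11.trna11-LysTTT to chr11.trna5-LysTTT was 0.91 and 1.03 in untreated EV, 1.05 and 1.15 in treated EV, 0.0404 and 0.0161 in untreated R273H and 0.0233 and 0.0216 in treated R273H. In the R273H libraries chr11.trna5-LysTTT supplied 80.5% to 84.5% of the Lys TTT reads. The Lys TTT sum was 301 and 165 reads per 100000 in untreated EV and 365 and 260 in treated EV. In R273H the sum was 53.2 and 55.2 untreated and 68.6 and 89.8 treated. As a share of tRNA reads it was 4.35% and 4.40% in untreated EV and 3.09% and 2.06% in untreated R273H. The untreated log2 ratio of the group values was -2.05, and -0.77 as a share of tRNA reads. In untreated cells the summed reads of chr11.trna11-LysTTT were 89.8-fold lower in R273H (50.0 to 181). The smaller copy chr6.trna143-LysTTT had 7.59, 4.61, 9.81 and 6.77 reads per 100000 in EV, and 1.67 to 3.95 in R273H.

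Lys CTT, which reads AAG codons, differed less between the lines. Its sum was 33.1 and 21.1 reads per 100000 in untreated EV, 54.2 and 18.8 in treated EV, 13.5 and 20.1 in untreated R273H and 33.9 and 50.2 in treated R273H. The 4 EV and 4 R273H libraries overlap. The leading copy chr16.trna32-LysCTT had 18.8, 11.5, 32.4 and 7.27 reads per 100000 in EV and 6.52, 7.88, 20.0 and 27.3 in R273H, and the next, chr16.trna10-LysCTT, had 41, 13, 27 and 12 reads in EV, against 21, 27, 38 and 53 in R273H. In neither of these copies were the R273H libraries apart from the EV libraries when all 8 are set side by side. Untreated, chr16.trna32-LysCTT was lower in both R273H libraries, with a log2 fold change of -0.98.

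**Figure D2:**
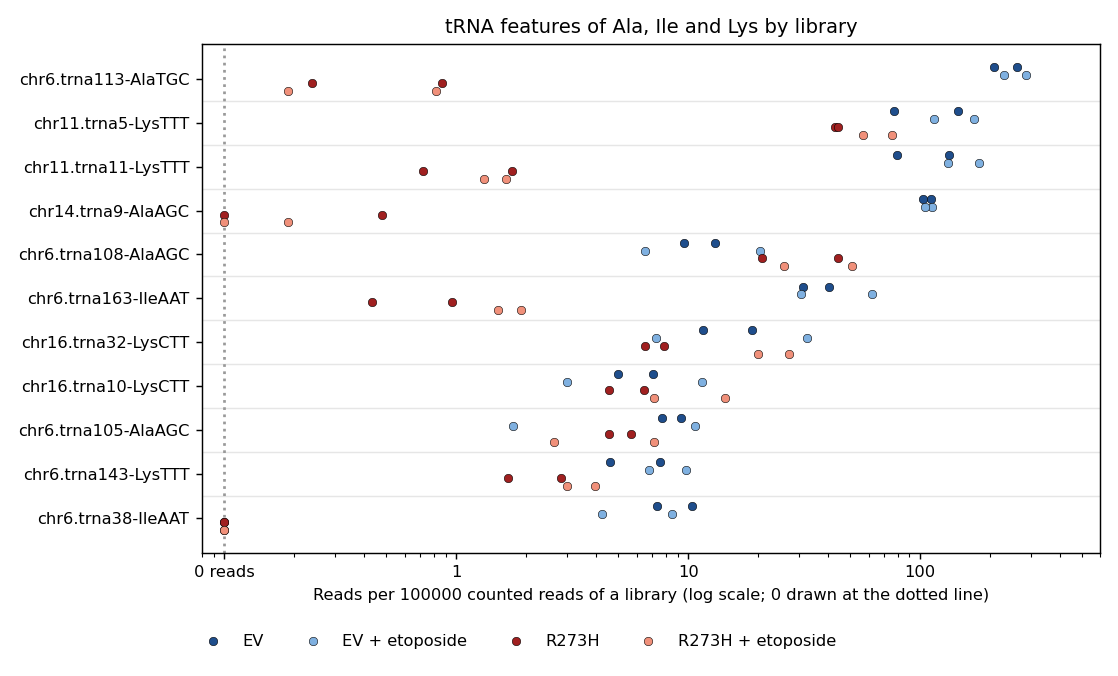
Level of the 10 features with the highest mean level and of chr6.trna38-IleAAT, in reads per 100000 counted reads on a log axis, each point 1 of the 8 libraries (2 per group), with libraries at 0 drawn at the dotted line. The 5 copies of chr6.trna113-AlaTGC, chr11.trna11-LysTTT, chr14.trna9-AlaAGC, chr6.trna163-IleAAT and chr6.trna38-IleAAT have R273H points far to the left of the EV points, while chr11.trna5-LysTTT and the Lys CTT copies lie closer together and chr6.trna108-AlaAGC lies higher in R273H.

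**Figure D3:**
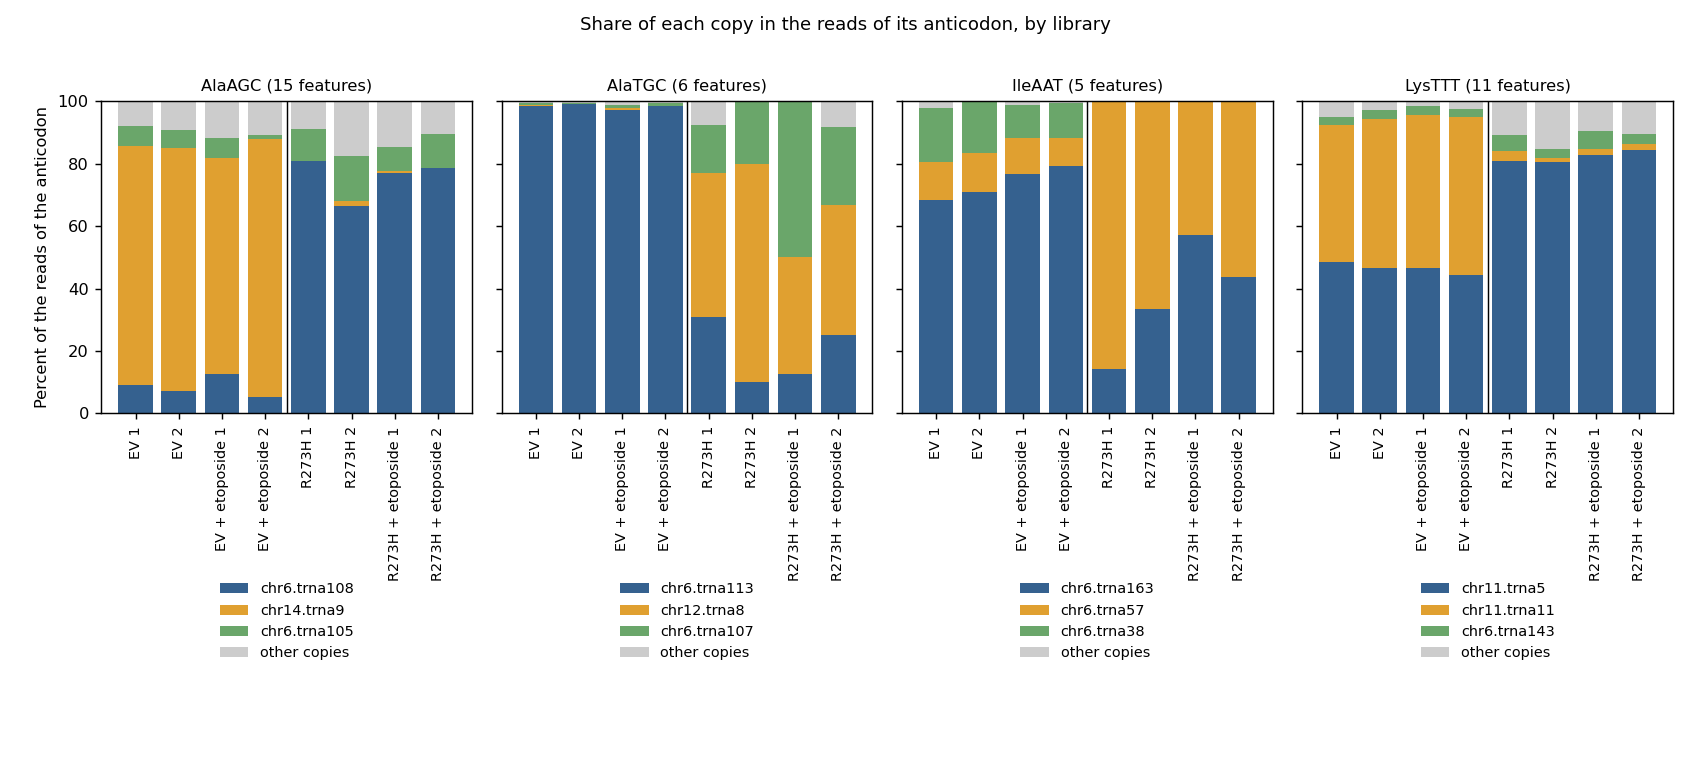
Percent of the reads of an anticodon that came from each copy, for Ala AGC, Ala TGC, Ile AAT and Lys TTT, in each library (stacked bars, EV libraries left of the line and R273H libraries right of it). The leading copy of Ala AGC is chr14.trna9 in EV and chr6.trna108 in R273H, Lys TTT passes from a near-even split to at least 80.5% from chr11.trna5, and the R273H bars of Ala TGC and Ile AAT rest on 8 to 16 reads each.

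In the untreated lines 28 of the 57 features passed the filter of a mean normalized count of at least 3, and a member high in EV alone could pass through that group. The R273H libraries lay below the EV libraries with no overlap in 16 of them, against 31.9% of all tested features, and above in 2, against 29.3%. Of the 28, 12 were at least 2-fold lower in R273H, against 16.8% of all 417 features, and 2 were at least 2-fold higher, again against 16.8%. A 16-fold lower value was seen in 5 of the 28 and in 8 of the 417, or 1.92%. Since the features were chosen on this contrast, nothing is read from these counts. The log2 fold changes of R273H against EV, fitted on log2(normalized count + 1), were -8.27 for chr6.trna113-AlaTGC, -8.04 for chr14.trna9-AlaAGC, -6.17 for chr11.trna11-LysTTT, -5.29 for chr6.trna163-IleAAT and -5.19 for chr6.trna38-IleAAT. These fitted values depend on the added 1 where R273H is near 0 and are no bounds. The median was -0.93 over the 28 features, -0.45 over the other tested tRNA features and -0.05 over all tested features. A feature named as one-sided had at least 100 normalized counts on average in EV. Both of its R273H values were under 5% of its lower EV value, and 4 features met this. The nearest inside was chr6.trna163-IleAAT, whose higher R273H value was 2.76% of its lower EV value. Outside, chr6.trna38-IleAAT had no R273H reads but an EV mean of 35.9. Also outside was chr11.trna5-LysTTT, whose R273H mean was 40.8% of the EV mean, far above 5%.

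The treated libraries were not used in choosing the features, except that shares of 4 of them in these libraries were known from an earlier look at these data. In them 26 of the 57 features were tested together with all others, and 10 were called by limma with a Benjamini-Hochberg adjusted p under 0.05 over 458 features. Of these 9 were lower and 1 was higher in R273H, against 10.9% and 6.99% of all tested features, and 17.9% in all. The R273H libraries lay below the EV libraries with no overlap in 15 of the 26, against 29.3% of all tested features, and above in 1, against 27.3%. The median over the 26 was -1.14 and over all tested features 0.03. Of the 26, 6 had a mean under 3 in R273H and passed the filter through EV alone, so they had to differ, and 4 of the 10 calls are among them (chr6.trna113-AlaTGC, chr14.trna9-AlaAGC, chr6.trna38-IleAAT and chr11.trna18-AlaTGC). The counts and the median over the tested features are therefore a description. With no filter the median was -0.62 over 55 features and 0.10 over all. In that setting 5 of the 55 were called, against 10 calls over all features. By anticodon, 2 of 6 tested Ala AGC features were lower and 1 was higher, 2 of 3 Ala TGC features and 3 of 3 Ile AAT features were lower, 2 of 6 Lys TTT features were lower, and none of 6 Lys CTT features was called. Neither the Ala CGC nor the Ile GAT feature tested passed, and no Ile TAT feature was tested.

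The 5 copies were called in this contrast with the largest differences. Normalized counts of chr6.trna113-AlaTGC were 816 and 1245 in EV and 0.793 and 2.17 in R273H, a log2 fold change of -8.73 ± 0.41 (SE, limma). Those of chr14.trna9-AlaAGC were 322 and 569 in EV and 0.793 and 0 in R273H, a log2 fold change of -8.32 ± 0.48. Both have reads in R273H at or below the floor of 3 per library, and the ratio of summed reads was 674 (counting interval 263 to 2475) and 1160.1 (208 to 45886). Both were picked after their values were seen and passed the filter through EV alone, so no p-value is given for them.

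The lysine and isoleucine copies behaved alike. Normalized counts of chr11.trna11-LysTTT were 510 and 711 in treated EV, against 5.55 and 4.33 in treated R273H (log2 fold change -6.67 ± 0.37, limma adjusted p = 2.12e-09, a ratio of 123 with a counting interval of 71.6 to 232). Those of chr6.trna163-IleAAT were 177 and 165 in EV and 6.35 and 5.06 in R273H (-4.69 ± 0.40, limma adjusted p = 5.75e-07, a ratio of 30.3 with an interval of 18.0 to 54.8). Those of chr6.trna38-IleAAT were 24.3 and 23.0 in EV, and R273H had no read, which makes it at least 10.4-fold lower. Of the 15 alternatives tried, those that kept both libraries of each group all gave these 5 calls, among them no filter and scaling to tRNA reads. The copies were picked after their values were seen. In the main fit chr6.trna113-AlaTGC, chr14.trna9-AlaAGC and chr6.trna38-IleAAT passed the filter through EV alone. The calls and their stability are therefore a description. In the 4 alternatives that leave out 1 library, 1 group has a single library, which is assumed to vary as the 2 of the other group do.

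The other 5 calls were smaller and depended on the processing. The log2 fold change was -1.32 for chr11.trna5-LysTTT (limma adjusted p = 0.0156), -2.04 for chr6.trna68-AlaAGC (0.0179), -1.84 for chr6.trna57-IleAAT (0.0261) and 1.40 for chr6.trna108-AlaAGC (0.0176). The fifth, chr11.trna18-AlaTGC, was at least 3.39-fold lower, where EV held 7 and 5 reads and R273H none. It passed the filter through EV alone, so no p-value is given, and it had no call without the filter. The first 4 lost their call in 8 of 15 alternatives each and chr11.trna18-AlaTGC in 3 of 12. Scaled to tRNA reads, the difference of chr11.trna5-LysTTT was -0.12. The tRNA share of the treated libraries, 8.61% and 8.77% in EV and 4.34% and 4.53% in R273H, moves with these calls. The 6 Lys CTT features ranged from -0.95 to 0.53 on the log2 scale, and their sum was 54.2 and 18.8 reads per 100000 in EV against 33.9 and 50.2 in R273H.

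**Figure D4:**
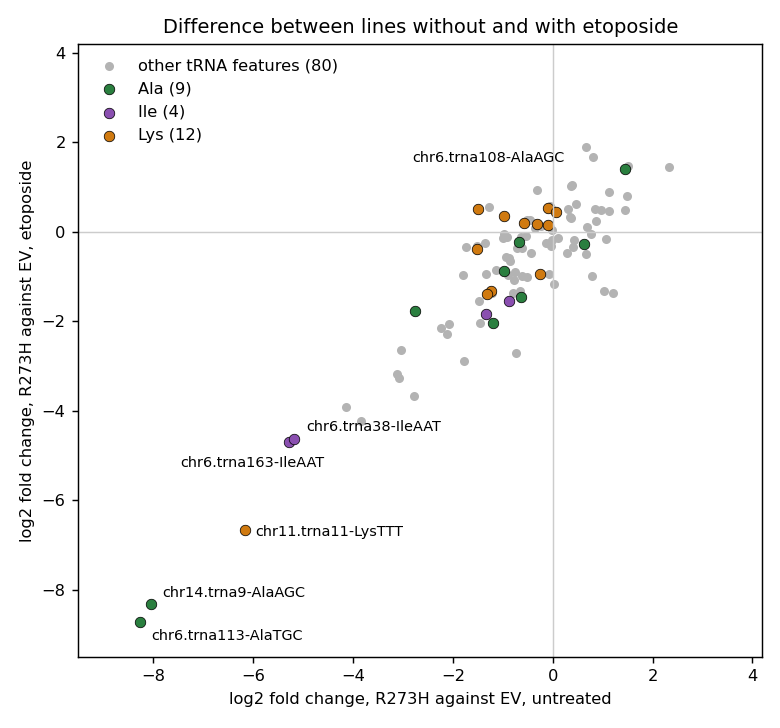
The log2 fold change of R273H against EV with etoposide (vertical axis) plotted against the same without etoposide (horizontal axis), from separate libraries, for the 25 Ala, Ile and Lys features (colours) and 80 other tRNA features (grey) tested in both. The 5 copies lie at the lower left in both and chr6.trna108-AlaAGC, at 1.46 and 1.40, at the upper right.

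No feature passed the test of etoposide in either line. In EV none of 28 tested features was called by limma at an adjusted p under 0.05, against 0.725% of 414 tested features. At an unadjusted p under 0.05 there were 2 of the 28, against 6.76% of the 414, and edgeR had 1 and DESeq2 0. After adjustment neither tool called any. The median log2 fold change was -0.25 over the 28 features and 0.00 over all tested features. Scaled to tRNA reads these medians were -0.64 and -0.36, and with no filter -0.08 and -0.00. The treated libraries lay below the untreated ones with no overlap in 5 features, against 14% of all tested features, and above in 2, against 17.4%. Values at least 2-fold lower numbered 3, against 5.07%, and none was 2-fold higher, against 7.25%. Those 2 were chr6.trna105-AlaAGC, with 34.8 and 30.3 normalized counts untreated and 23.8 and 6.89 treated (log2 fold change -1.26 ± 0.54, limma adjusted p = 0.485), and chr6.trna71-LysTTT, with 24.5 and 4.54 untreated and 4.77 and 1.97 treated (-1.52 ± 0.75, limma adjusted p = 0.694). The next smallest p was that of chr6.trna38-IleAAT, with 38.7 and 28.8 untreated and 19.1 and 16.7 treated (-0.87 ± 0.52, limma adjusted p = 0.839). The 4 highest copies in EV moved by -0.24 ± 0.41 (chr6.trna113-AlaTGC), 0.03 ± 0.39 (chr11.trna5-LysTTT), 0.21 ± 0.40 (chr11.trna11-LysTTT) and -0.35 ± 0.39 (chr14.trna9-AlaAGC) on the log2 scale, each within its standard error.

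In R273H none of 23 tested features was called by limma either, against 0% of 450 tested features, and edgeR and DESeq2 called none. The treated libraries lay below the untreated ones with no overlap in 7 of the 23, against 18% of all tested features, and above in 4, against 20.7%. At least 2-fold lower values numbered 5, against 5.56%, and 2-fold higher ones 3, against 4.44%. The median log2 fold change was -0.29 over the 23 features and 0.01 over all tested features. Scaled to tRNA reads these medians were -0.60 and -0.34, and with no filter -0.21 and 0.05. At an unadjusted p under 0.05 limma had 3, against 8.22% of all tested features, edgeR had 2 and DESeq2 had 1. Those of limma were chr16.trna32-LysCTT, which had 39.9 and 39.0 normalized counts untreated and 87.4 and 74.2 treated (log2 fold change 1.01 ± 0.33, limma adjusted p = 0.418), chr6.trna105-AlaAGC, with 34.6 and 22.4 untreated and 11.5 and 19.3 treated (-0.86 ± 0.39, limma adjusted p = 0.571), and chrX_random.trna1-IleGAT, with 10.6 and 8.27 untreated and 4.12 and 2.97 treated (-1.20 ± 0.56, limma adjusted p = 0.571). Of the 5 copies, chr11.trna11-LysTTT moved by -0.26 ± 0.62 and chr6.trna163-IleAAT by 0.59 ± 0.65, and the other 3 were too low to be tested.

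No response to etoposide differed between the lines by the interaction test, in which limma called none of 27 tested features (0% of 440 in all) and none had an unadjusted p under 0.05, against 2.73% of the 440. edgeR called none of the 27 and had 1 at an unadjusted p under 0.05, and DESeq2 had none. The smallest p belonged to chr16.trna32-LysCTT, whose response was higher in R273H by 1.32 ± 0.62 on the log2 scale (limma adjusted p = 0.993). All tRNA reads rose as a share of the libraries with etoposide, from 3.75% and 6.92% to 8.61% and 8.77% in EV and from 1.72% and 2.67% to 4.34% and 4.53% in R273H, while the share of Ala, Ile and Lys within them, given above, had a lower mean with etoposide in both lines.

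**Figure D5:**
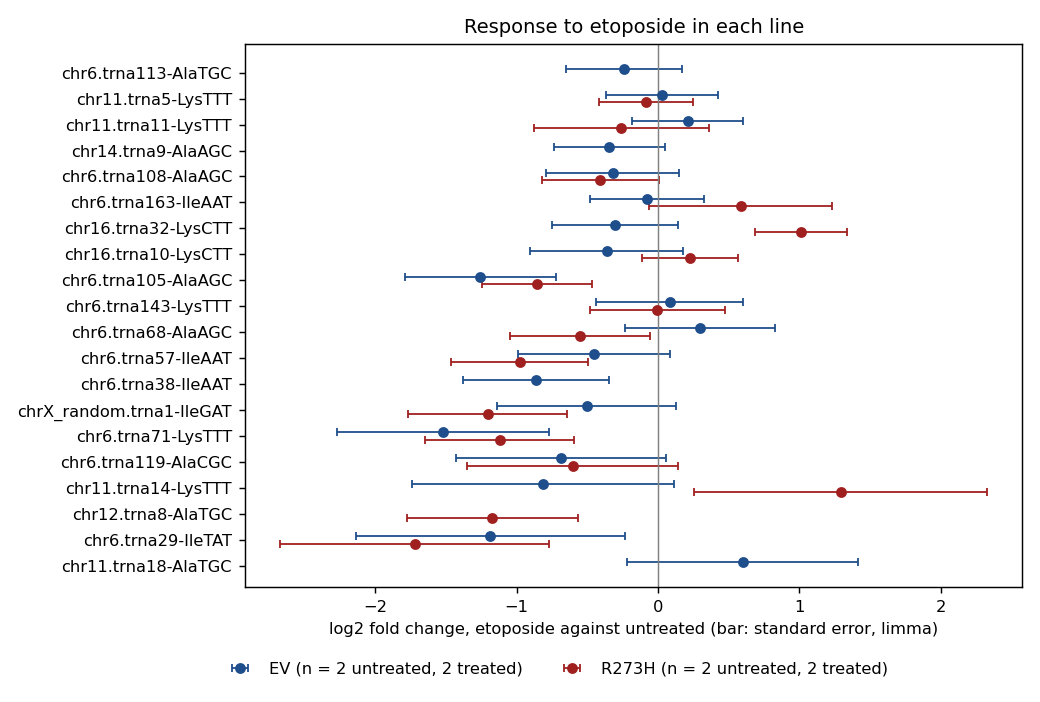
The log2 fold change of etoposide against untreated for the named features in EV (blue) and R273H (red), with bars of 1 standard error from limma and 2 libraries per treatment. Values lie on both sides of 0 in both lines, more of them below it, and none passes an adjusted p under 0.05. The values of chr16.trna32-LysCTT, -0.30 in EV and 1.01 in R273H, differ most in position relative to their bars.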

How the data were processed

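The authors trimmed and filtered Ion PGM reads of small RNA to 17 to 35 bases, aligned them to miRNA and tRNA, rRNA and adapter references and counted them per feature, then deposited normalized counts (signal: reads divided by DESeq size factors) in 3 tables of 2 groups each; the version of the tRNA set is not given in the sources used here. Another 3 deposited tables hold the authors' own fold changes and p-values and were not used. Whole reads were recovered from the step of each column (100% of values within 0.006 of a whole number of steps). The main test was limma (3.58.1) on log2(normalized count + 1), with a minimum mean of 3 and Benjamini-Hochberg adjustment over all features. For treated libraries, which no one table holds, recovered reads were divided by median-of-ratios size factors. edgeR 4.0.16 and DESeq2 1.42.0 were run on the recovered reads, R was 4.3.3, and the scripts were tested on simulated counts. Alternatives varied the filter, scaling, pseudocount, tool and replicates. Named features were the 10 highest and the leading copy of each anticodon. Also named were those with a mean of at least 100 in untreated EV and both R273H values under 5% of the lower EV value. Those at that threshold were named too. From each test came the called features or, where fewer than 3 were called, the 3 with the smallest p. The features and lists were chosen with earlier results of these data known.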

Additional observations from a re-analysis of the deposited data

How the results depend on the processing

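Depth limits these results where copies have under 10 reads, and 2 libraries per group limit every test. The number of features at least 2-fold lower in untreated R273H was 12 and became 19 with no filter on low values and 6 when scaled to tRNA reads, and ranged from 10 to 15 when 1 library was left out. Features called in the treated lines numbered 10, against 82 calls over all features. With no filter they numbered 5, against 10 over all features, and the cause of this drop was not tested. Anticodon sums at least 2-fold lower in R273H numbered 5 untreated and 6 treated and, as a share of tRNA reads, 2 and 3. The untreated sums of 2 anticodons changed direction as a share of tRNA reads. On the log2 scale Ile GAT went from -0.99 to 0.10 and Lys CTT from -0.67 to 0.56. Scaling to tRNA reads moved the median of all features from -0.05 to 1.07 untreated and from 0.03 to 1.12 treated. Of the values of single features in tested comparisons, 35 lost and 2 gained a call and 1027 stayed on their side of the threshold. The 0 calls for etoposide and for the interaction held in every alternative. Libraries with the same replicate number did not deviate in the same direction (correlation of deviations -0.023 to -0.010 and -0.235 for the treated lines). Whether they were handled as pairs was not tested. With the replicate block the treated lines gave 7 calls, against 34 over all features. The crossed block, chosen after seeing the data, gave 11, against 123 over all features. In the etoposide comparisons the replicate block gave 0, against 2 over all features in EV and 0 in R273H.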
